A study of Danio rerio with 26 samples.

Results

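The genes described here are zygotic genes of the zebrafish embryo whose RNA was higher after knockdown of znf281b, a zinc finger gene, than with the Cas13d nuclease alone. They number 31 of the 32520 genes in the deposited tables. They were chosen by measured values. In the embryo time course, a member had a mean of at least 5 TPM (transcripts of a gene, corrected for its length, within a fixed total of all transcripts) at 4 hours post fertilisation (hpf), and its mean plus 1 was at least 1.4 times that at 2 hpf. In the knockdown table, its mean was at least 10 TPM and at least 1.4 times the control mean, and its lowest knockdown library lay above the highest control library. The embryo condition was met by 965 genes and the knockdown condition by 1380. Differences between 4 and 2 hpf, and between knockdown and control, therefore describe the choice, and no test of them is given for the members.

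The knockdown table holds 3 libraries labelled znf281b KD and 3 labelled pCas13d alone, all from whole embryos at 4 hpf. The time course holds 3 libraries each of whole embryos at 0, 2, 4 and 6 hpf, and the oocyte table holds 2 libraries each of stages I, II, III and IV. The labels give one genotype, AB, TF and TLF, for all 26 libraries. Time-course libraries were made from 20 dechorionated embryos and oocyte libraries from 50 oocytes, so each library is a pool. The guides, the form in which they and the nuclease were given, and the number of embryos behind a knockdown library could not be taken from the labels. The control is labelled as the nuclease alone, and no library with a guide to another sequence is among these samples. Nothing in the labels says whether knockdown replicates came from separate clutches, so the p-values measure the spread between these samples only.

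At fertilisation the zebrafish embryo runs on RNA and protein stored in the egg, and its own genome is switched on over the following hours while maternal RNA is cleared. Cells respond to DNA damage and other stress by transcribing genes that stop the cell cycle, promote apoptosis or limit the response itself. Immediate early genes such as jun are transcribed within minutes of a signal or stress, without new protein synthesis.

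The targeted gene was checked first. znf281b had 149, 147 and 171 TPM in znf281b KD embryos, against 219, 269 and 267 TPM in pCas13d embryos. The knockdown mean was 61.9% of the control mean, and the groups did not overlap. The log2 difference was -0.69 (SE 0.11, adjusted p = 0.00991, limma), and without znf281b KD replicate 2 its adjusted p was 0.0549. The exact two-sided permutation test gave p = 0.1, the smallest that 3 against 3 libraries allow. Time-course embryos at 4 hpf, normalised separately, averaged 127 TPM of znf281b. That was below the means of 252 TPM in pCas13d and 156 TPM in znf281b KD embryos, and no test was made across them. The related gene znf281a had 6.10, 7.25 and 6.85 TPM in znf281b KD embryos against 8.93, 9.87 and 17.7 TPM in pCas13d embryos, a difference that did not pass the test (log2 difference -0.71, SE 0.25, adjusted p = 0.111, limma). Another relative, znf148, averaged 0.457 TPM in knockdown and 0.453 TPM in control embryos and was too low to test.

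Of all 15068 genes tested in the knockdown table, 952 (6.32%) were called higher and 459 (3.05%) lower in znf281b KD embryos (limma on log2 of TPM + 1, adjusted p under 0.05). Both counts depended on which libraries were used. Without 1 library at a time, 146 to 1692 genes were called higher and 161 to 623 lower. Genes called higher numbered 295 and 1692 without pCas13d replicates 1 and 2. They numbered 184, 146 and 320 without znf281b KD replicates 1, 2 and 3. Genes called lower numbered 232 without pCas13d replicate 1 and 194, 161 and 218 without znf281b KD replicates 1, 2 and 3. The knockdown condition of the choice was met by 9.16% of the tested genes. Of the 749 zygotic genes that were tested 4.14% met it, against 9.42% of the 14319 tested genes that were not zygotic by the same values. The mirrored condition, lower in knockdown, was met by 322 zygotic genes, which is 43% of those tested, against 0.978% of the others. These shares come from the contrast that chose the members and were not tested. The 31 members had a median log2 difference of 1.08 (range 0.58 to 3.52), against a median of 0.09 over all tested genes, as a description of what the choice selected.

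For 3 members the values are uncertain. CR388206.11, CR388206.15 and CR759843.4 carry the name U1 in the reference gene names, and the reference names 182 genes U1, the small nuclear RNA that recognises the start of an intron. Reads from near-identical copies cannot be assigned with certainty. CR388206.11 and CR388206.15 had identical deposited values in 21 of 26 libraries, including all 3 znf281b KD libraries, where both averaged 10.6 TPM, and all 3 pCas13d libraries, where both were listed at 0. In time-course embryos at 4 hpf the same pair split: CR388206.11 had 0, 0 and 31.5 TPM and CR388206.15 had 53.4, 63.1 and 0 TPM. CR759843.4 had 13.1, 12.9 and 12.04 TPM in znf281b KD embryos and 11.8, 7.08 and 0 TPM in pCas13d embryos. The remaining 28 members carry other gene names and are described from here on; where a count is over 31, it includes the U1 copies.

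**Figure D1:**
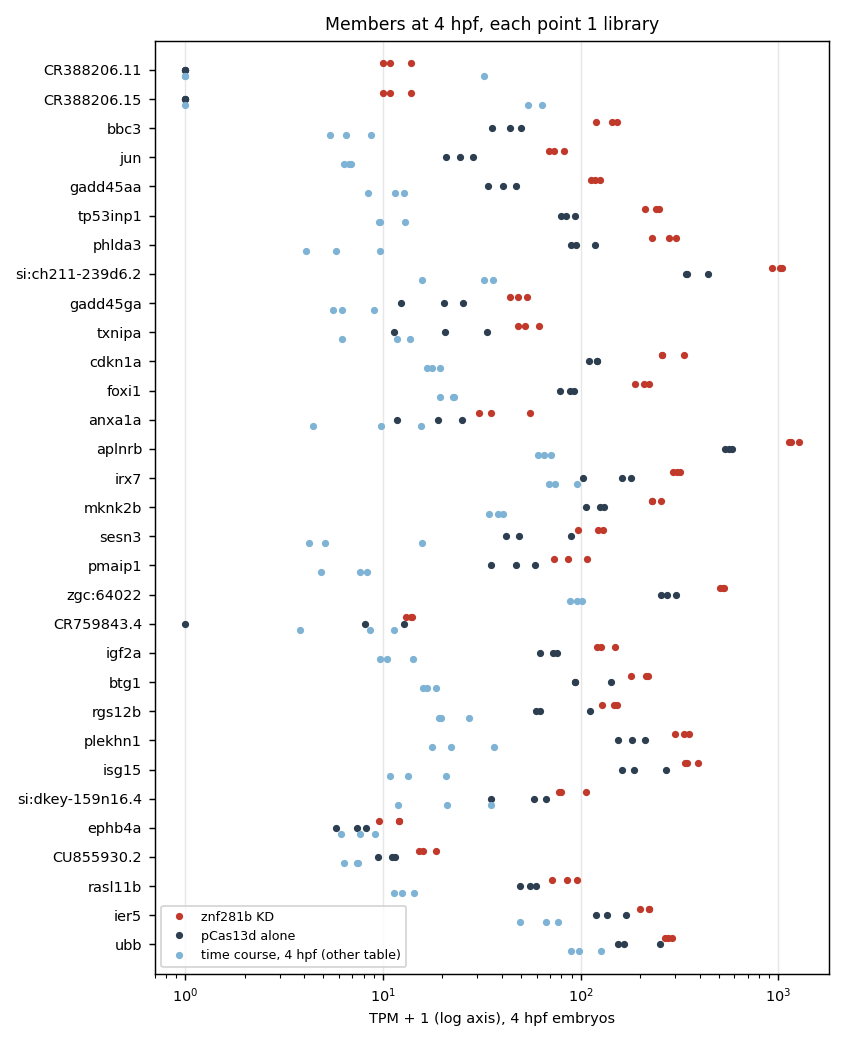
TPM + 1 of every member at 4 hpf on a log axis, each point 1 library, with 3 znf281b KD, 3 pCas13d and 3 time-course libraries per gene; members run down the page from the largest to the smallest log2 difference between knockdown and control. The separation of knockdown from pCas13d points is fixed by the choice of members, and time-course points come from a separately normalised table. In most rows the pCas13d points also lie to the right of the time-course points, and both tables entered the choice.

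The largest group with a shared role came from a list of 31 DNA damage and apoptosis genes, 8 of which are members: bbc3, gadd45aa, tp53inp1, phlda3, cdkn1a, sesn3, pmaip1 and btg1. The list was drawn up with earlier results of these data known, so its overlap with the members is not independent evidence. Among the pro-apoptotic members, bbc3, which encodes the BH3-only protein Puma, had 119, 143 and 152 TPM in znf281b KD embryos, against 43.1, 48.9 and 34.6 TPM in pCas13d embryos. The means, 137.9 ± 17.1 and 42.2 ± 7.2 TPM (SD, n = 3 each), differed 3.27-fold, the largest ratio among the members with a control value above 0 in every library. pmaip1, which encodes the BH3-only protein Noxa, had 72.2, 85.0 and 107 TPM in znf281b KD embryos and 46.0, 34.1 and 57.7 TPM in pCas13d embryos, a 1.92-fold difference. Both of these encode proteins that bind and block the survival factors of the Bcl-2 family.

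Members that restrain the cell cycle or mark DNA damage were higher by similar ratios. cdkn1a, which encodes the cyclin-dependent kinase inhibitor p21, had 257, 258 and 331 TPM in znf281b KD embryos, against 109, 119 and 121 TPM in pCas13d embryos, a 2.42-fold difference. gadd45aa, a growth arrest and DNA damage-inducible gene, had 112, 117 and 125 TPM in znf281b KD embryos and 46.2, 33.2 and 39.6 TPM in pCas13d embryos, a 2.97-fold difference. Its relative gadd45ga, which was not in the DNA damage list, had 42.9, 52.5 and 47.5 TPM in znf281b KD embryos and 19.5, 24.5 and 11.3 TPM in pCas13d embryos. The lowest knockdown library of gadd45ga stood well above the highest control library. btg1, an antiproliferative gene, had 180, 214 and 219 TPM in znf281b KD embryos and 92.3, 92.9 and 142 TPM in pCas13d embryos, with pCas13d replicate 3 apart from the other two.

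The remaining DNA damage list members encode signalling and stress proteins. tp53inp1, a stress-induced nuclear protein, had 211, 240 and 248 TPM in znf281b KD embryos, against 78.4, 83.2 and 92.9 TPM in pCas13d embryos, a 2.75-fold difference with little spread within either group. phlda3, whose pleckstrin homology domain competes with the kinase Akt for membrane lipids, had 229, 278 and 302 TPM in znf281b KD embryos and 94.1, 88.7 and 117 TPM in pCas13d embryos, a 2.7-fold difference. sesn3, a sestrin that restrains TORC1 signalling, had 95.8, 129 and 122 TPM in znf281b KD embryos and 40.8, 47.9 and 88.6 TPM in pCas13d embryos. For sesn3 the gap was narrow, since pCas13d replicate 3 came close to znf281b KD replicate 1.

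The rest of the DNA damage list was described with the members left out. Of its 19 other genes tested, 6 rose and 1 fell, against 6.32% higher and 3.05% lower over all tested genes. Their median log2 difference was 0.27, against 0.09 over all tested genes. With median-of-ratios scaling, 5 rose and 1 fell. Since the list was drawn up with earlier results of these data known, these counts are not independent evidence either. The same holds for the other lists below. sesn1, another sestrin, had 335, 398 and 351 TPM in znf281b KD embryos, against 83.2, 101 and 96.9 TPM in pCas13d embryos (log2 difference 1.94, SE 0.11, adjusted p = 0.000316, limma). mdm2, which encodes a RING-type ubiquitin ligase, had 772, 979 and 961 TPM in znf281b KD embryos, against 351, 342 and 482 TPM in pCas13d embryos (log2 difference 1.21, SE 0.15, adjusted p = 0.00403, limma). mdm4, its close relative, had 101, 99.7 and 95.1 TPM in znf281b KD embryos, against 36.6, 47.3 and 24.8 TPM in pCas13d embryos (log2 difference 1.47, SE 0.20, adjusted p = 0.00668, limma). These genes fell short of membership only on the embryo condition: their time-course means were 17.2, 57.3 and 36.3 TPM at 4 hpf against 26.7, 59.7 and 75.6 TPM at 2 hpf for sesn1, mdm2 and mdm4.

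The calls for sesn1, mdm2 and mdm4 held in each of 11 alternative fits, with adjusted p of at most 0.0043, 0.0248 and 0.0326. The other calls in the DNA damage list were lost when any of several libraries was left out. Each such fit has fewer libraries, so a lost call does not show that 1 library carried it. foxo3b, a forkhead factor, had a log2 difference of 1.27 (adjusted p = 0.0197, limma), and its adjusted p reached 0.0775 over the alternatives, with the call lost without pCas13d replicate 1 or znf281b KD replicate 2 or 3. casp8, an initiator caspase, had a log2 difference of 0.64 (adjusted p = 0.0234, limma; at most 0.1 over the alternatives) and lost its call without znf281b KD replicate 2 or 3. rps27l had a log2 difference of 0.53 (adjusted p = 0.0364, limma, and at most 0.157 over the alternatives). It lost its call without any 1 of the 6 libraries, with median-of-ratios scaling and with a replicate block. Without a filter on low values foxo3b, casp8 and rps27l also lost their calls, as did gadd45ba. gadd45ba was the gene that fell (log2 difference -0.78, adjusted p = 0.0258, limma; at most 0.0989), and it lost its call without pCas13d replicate 1 or without any 1 of the knockdown libraries.

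Of the 19 other genes, 12 did not pass the test. ccng1, a cyclin gene induced by DNA damage in mammals, averaged 1770 TPM in znf281b KD embryos and 1896 TPM in pCas13d embryos (log2 difference -0.10, SE 0.07, adjusted p = 0.374, limma) and was one of these. The DNA damage list, members included, summed to between 5520 and 6317 TPM in znf281b KD libraries, against 4084 to 4577 TPM in pCas13d libraries. Part of that gap is fixed by the choice of members. The 19 other tested genes alone summed to between 4243 and 4710 TPM in znf281b KD libraries. In pCas13d libraries these other genes summed to between 3534 and 3883 TPM. The sums without members still include mdm2, which averaged 903.8 TPM in znf281b KD and 391.7 TPM in pCas13d embryos. They also include sesn1, which averaged 361.5 and 93.6 TPM. Much of the gap between the sums lies in these genes, so the sums do not describe a rise shared by the 19 genes. The list also holds igf2bp3, an RNA-binding protein gene, and 2 gene IDs named baxa.

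**Figure D2:**
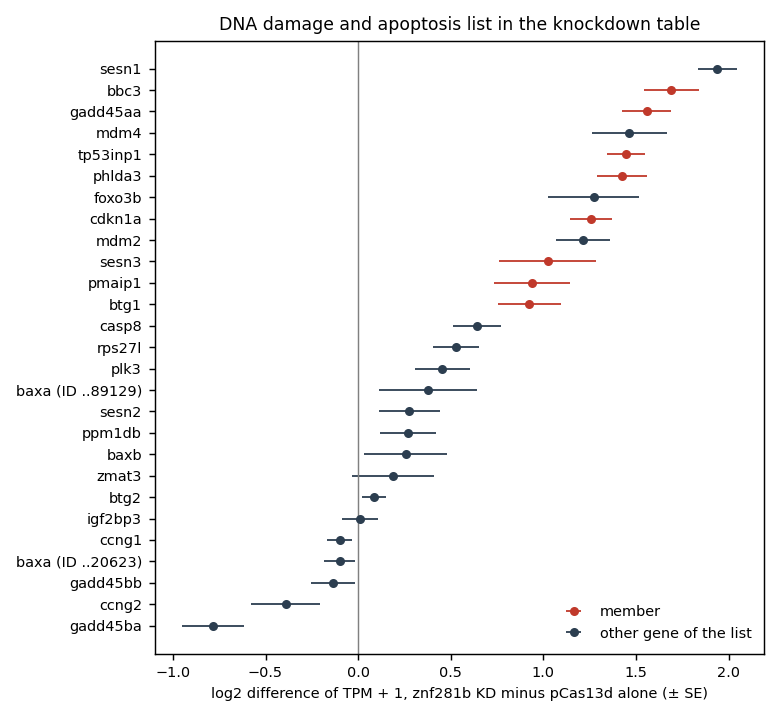
Log2 difference of TPM + 1 between znf281b KD and pCas13d embryos for the tested genes of the DNA damage list, with bars of 1 SE from limma; members and other genes are marked by colour. sesn1, at 1.94, lies above every member of the list, and ccng1, at -0.10, lies near 0.

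Outside the DNA damage list, 2 members are immediate early genes. jun, a subunit of the AP-1 transcription factor, had 68.3, 72.6 and 81.2 TPM in znf281b KD embryos, against 19.8, 23.4 and 27.7 TPM in pCas13d embryos, a 3.14-fold difference. ier5, an immediate early response gene, had 199, 221 and 220 TPM in znf281b KD embryos and 134, 119 and 168 TPM in pCas13d embryos. The other 16 tested genes of the immediate early list included 2 that rose and 3 that fell, with a median log2 difference of -0.13. Over all tested genes 6.32% were called higher and 3.05% lower. The risers were fosab, the zebrafish gene for the AP-1 partner Fos, with 66.7, 73.1 and 74.4 TPM in znf281b KD embryos against 22.1, 26.9 and 32.8 TPM in pCas13d embryos (log2 difference 1.37, SE 0.15, adjusted p = 0.00259, limma), and atf3, a stress-induced factor. atf3 had 14.8, 13.7 and 16.6 TPM in znf281b KD embryos and 5.70, 7.91 and 6.47 TPM in pCas13d embryos (log2 difference 1.07, SE 0.17, adjusted p = 0.0108, limma, and 0.0528 without znf281b KD replicate 1). The 3 that fell were ier2b, mych and klf2a, with log2 differences of -1.26, -0.70 and -0.39 (adjusted p = 0.0228, 0.0195 and 0.0447, limma).

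1 member belongs to the interferon and antiviral list. isg15, a ubiquitin-like protein induced by interferon, had 345, 336 and 391.8 TPM in znf281b KD embryos, against 268, 161 and 186 TPM in pCas13d embryos, a 1.75-fold difference in which pCas13d replicate 1 was the highest control. Of the 7 other tested genes of that list, 2 rose and 1 fell, against 6.32% higher and 3.05% lower over all tested genes. ifit8 had 30.7, 28.9 and 40.8 TPM in znf281b KD embryos and 8.15, 7.64 and 11.9 TPM in pCas13d embryos (log2 difference 1.76, adjusted p = 0.00338, limma), and its call held in all 11 alternatives. rsad2, which encodes the antiviral protein viperin, had 3.43, 6.08 and 4.44 TPM in znf281b KD embryos and 1.08, 1.04 and 1.52 TPM in pCas13d embryos (log2 difference 1.33, adjusted p = 0.0135, limma; 0.0605 at most, with the call lost without pCas13d replicate 1 or znf281b KD replicate 2). irf7, an interferon regulatory factor, fell (log2 difference -1.19, adjusted p = 0.027, limma; 0.108 at most, lost without pCas13d replicate 1 or znf281b KD replicate 2 or 3). Without a filter on low values rsad2 and irf7 also lost their calls. The heat shock and unfolded protein list holds no member, and of its 24 tested genes 0 rose and 1 fell (limma).

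Several members are genes of early patterning and gastrulation, and the rest of their lists had more genes falling than rising by count. aplnrb, a receptor for Apela and apelin that acts in mesendoderm migration, was the most abundant member, with 1131, 1268 and 1164 TPM in znf281b KD embryos against 563, 580 and 533 TPM in pCas13d embryos. Its 2.13-fold difference came with an SD of 71.0 TPM in knockdown and 23.8 TPM in control embryos (n = 3 each). In the NODAL and mesendoderm list 28 other genes were tested, of which 2 rose and 7 fell. Those that rose were smad2 and eomesa. Those that fell included apela, the gene of the ligand Apela, with means of 2.75 TPM in znf281b KD and 59.1 TPM in pCas13d embryos (log2 difference -4.05, adjusted p = 0.000508, limma). The related receptor gene aplnra fell as well (log2 difference -0.90, adjusted p = 0.0205, limma). In the cell adhesion and migration list, which also holds aplnrb, 1 of 28 other genes rose and 13 fell. Over all tested genes 6.32% were called higher and 3.05% lower. These 2 lists hold 16 and 12 zygotic genes, members included, and 43% of all tested zygotic genes met the mirrored condition, lower in knockdown. That condition is not the limma call, and whether the falls are particular to these lists was not tested.

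foxi1, a forkhead factor of ventral and placodal ectoderm, had 209, 220 and 187 TPM in znf281b KD embryos, against 87.7, 91.5 and 77.8 TPM in pCas13d embryos, a 2.40-fold difference. Of the 20 other tested genes of the BMP and ventral list, 1 rose and 8 fell, with a median log2 difference of -0.50. Over all tested genes 6.32% were called higher and 3.05% lower. This list holds 11 zygotic genes, and the enveloping layer and epidermis list 13, members included. irx7, an Iroquois homeobox gene, had 317, 291 and 307 TPM in znf281b KD embryos and 161, 180 and 102 TPM in pCas13d embryos, with narrow spread in knockdown. anxa1a, an annexin in the enveloping layer and epidermis list, had 29.7, 34.2 and 54.2 TPM in znf281b KD embryos and 17.9, 10.8 and 24.0 TPM in pCas13d embryos. The groups of anxa1a lay close together, and 1 of the 26 other tested genes of its list rose and 7 fell. ephb4a, an ephrin receptor, was the least abundant of the 28 members, with 11.1, 11.1 and 8.60 TPM in znf281b KD embryos and 4.8, 7.22 and 6.42 TPM in pCas13d embryos.

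Further members come from none of the lists, and a shared role among them was not tested. txnipa, the thioredoxin-interacting protein that restrains glucose uptake in mammals, had 47.0, 60.7 and 51.1 TPM in znf281b KD embryos, against 19.7, 10.4 and 32.6 TPM in pCas13d embryos. mknk2b, a kinase that phosphorylates the translation factor eIF4E, had 228, 255 and 229 TPM in znf281b KD embryos and 105, 131 and 124 TPM in pCas13d embryos. igf2a, an insulin-like growth factor, had 119, 125 and 149 TPM in znf281b KD embryos and 61.4, 71.9 and 75.4 TPM in pCas13d embryos. In all of these the mean ratio lay between 1.89 and 2.54, and txnipa had the widest control spread relative to its mean. plekhn1, a pleckstrin homology domain gene, had 300, 331 and 354 TPM in znf281b KD embryos and 154, 182 and 210 TPM in pCas13d embryos. rgs12b, a regulator of G-protein signalling, had 126, 151 and 146 TPM in znf281b KD embryos and 58.8, 61.1 and 111 TPM in pCas13d embryos, with pCas13d replicate 3 near the knockdown range.

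Some abundant members have no role stated here. si:ch211-239d6.2 had 932, 1043 and 1022 TPM in znf281b KD embryos, against 439, 346 and 340 TPM in pCas13d embryos, which makes it the second most abundant member. zgc:64022 had 505, 527 and 530 TPM in znf281b KD embryos and 274, 303 and 253 TPM in pCas13d embryos. si:dkey-159n16.4 had 78.5, 105 and 76.7 TPM in znf281b KD embryos and 34.4, 66.1 and 56.8 TPM in pCas13d embryos. All of these were at least 2-fold lower at 6 than at 4 hpf in the time course, as described below. CU855930.2, named si:ch211-261i19.3 in the reference, had 17.5, 14.9 and 14.3 TPM in znf281b KD embryos and 10.5, 8.41 and 10.2 TPM in pCas13d embryos.

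The members with the smallest ratios were ubb, ier5 and rasl11b. ubb, a polyubiquitin gene, had 290, 266 and 277 TPM in znf281b KD embryos and 164, 153 and 250 TPM in pCas13d embryos, a 1.47-fold difference, and ier5 differed 1.52-fold. rasl11b, a Ras-like GTPase gene, had 84.1, 70.4 and 95.1 TPM in znf281b KD embryos and 58.3, 48.5 and 54.2 TPM in pCas13d embryos, a 1.55-fold difference. Just outside the threshold, osgn1 met all other conditions with 81.6, 89.2 and 90.3 TPM in znf281b KD embryos and 54.2, 60.2 and 74.1 TPM in pCas13d embryos, a 1.39-fold difference. slc30a1a, a zinc transporter gene, was the other gene there, at 1.31-fold.

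Libraries within a group differed in ways that touch many members at once. The members summed to 6391, 6956 and 7040 TPM in znf281b KD replicates 1, 2 and 3, and replicate 1 was the lowest of its group for 20 of 31 members. They summed to 3217, 3133 and 3347 TPM in the pCas13d replicates. The count of 20 has no count over all genes beside it, so it is not a result about the members. A shift of the whole library cannot be told apart here. The median coefficient of variation over members was 10.1% in znf281b KD and 17.1% in pCas13d libraries, against 22.6% in the time-course libraries at 4 hpf. The choice of members favours low spread within the knockdown and control groups, and the members' levels were lower in the time course. These values therefore do not compare the reproducibility of the groups. RNA sampled from whole embryos does not show which cells hold it, and more cells of a type and more RNA per cell cannot be told apart. Blood and somatic cell markers were near 0 in the knockdown table, summing to between 2.92 and 3.21 TPM in znf281b KD libraries and 3.02 and 5.37 TPM in pCas13d libraries.

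The developmental state of the embryos at collection was looked at through genes that move between 4 and 6 hpf in the time course, leaving the members out. Of 1454 genes called at least 2-fold higher at 6 than at 4 hpf, 20 (1.38%) were higher and 191 (13.1%) lower in znf281b KD embryos, with a median log2 difference of -0.32. Of 5472 genes called at least 2-fold lower at 6 than at 4 hpf, 610 (11.1%) were higher and 73 (1.33%) lower, with a median of 0.25. The part of developmental timing in the levels of the members was not tested.

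The pCas13d control was set beside the time course at 4 hpf as well, with the limit that the tables were normalised separately and the knockdown libraries were read on a G4 sequencer, so no test was made. The 28 members without the U1 copies had a median of 173 TPM in znf281b KD embryos, 80.9 TPM in pCas13d embryos and 12.9 TPM in time-course embryos at 4 hpf. The ratio of pCas13d to time-course means, each plus 1, had a median of 3.87 and ran from 0.939 to 15.5. It was at least 2 for 23 of the 28 (82.1%), and for 25 of them every pCas13d library lay above every time-course library (89.3%). Over all 15068 tested genes the median ratio was 1.68, 35.7% were at least 2, and 61.2% had every pCas13d library above every time-course library. For zygotic genes lower in znf281b KD embryos the median was 1.94, with 47.8% at least 2. For the 396 other zygotic genes tested the median was 0.955, with 21% at least 2. Over all 612 other zygotic genes the median was 0.136, and 187 of them averaged under 1 TPM in pCas13d embryos. Both tables entered the choice: members needed at least 10 TPM in znf281b KD embryos but only 5 TPM at 4 hpf. The zygotic genes lower in knockdown needed at least 10 TPM in pCas13d embryos, and the other zygotic genes had no such floor. These ratios therefore describe sets chosen by such levels, and no difference between sets was tested.

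Some members stood far above the time course in the control itself. phlda3 had a pCas13d mean 15.5 times its time-course mean, each plus 1, and time-course libraries of 4.76, 8.71 and 3.10 TPM. isg15 stood 13.7 times higher, si:ch211-239d6.2 13.4 times, aplnrb 8.50 times and tp53inp1 8.01 times. At the other end, ephb4a stood at 0.939 of its time-course level, CU855930.2 at 1.51 and ubb at 1.82. The library kit of the knockdown libraries could not be taken from the labels. The parts of the nuclease, of library preparation, of the sequencer and of the separate normalisation cannot be told apart.

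In the time course, most members had little RNA before 4 hpf. Without the U1 copies, their median was 0.657 TPM at 0 hpf, 0.852 TPM at 2 hpf, 12.9 TPM at 4 hpf and 16.7 TPM at 6 hpf. At 0 hpf 16 of the 28 had a mean under 1 TPM. The largest maternal supplies were those of ubb, which had 73.4, 70.5 and 63.8 TPM at 0 hpf, and mknk2b, which had 20.7, 19.2 and 20.7 TPM at 0 hpf. Both of them passed the embryo condition by small ratios at 4 hpf, 1.76 for ubb and 1.404 for mknk2b. Next came ephb4a, rgs12b and pmaip1, with means of 5.22, 4.70 and 4.39 TPM at 0 hpf against 6.61, 21.1 and 5.93 TPM at 4 hpf. The ratios of ephb4a and pmaip1 were small as well, 1.70 and 1.99. By contrast, irx7 had 0.07, 0.07 and 0.20 TPM at 2 hpf and 68.3, 73.3 and 95.1 TPM at 4 hpf, and aplnrb had 0, 0 and 0.04 TPM at 2 hpf and 64.5, 70.0 and 60.1 TPM at 4 hpf.

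After 4 hpf the members parted, as a description without a test since the 4 hpf libraries were used in the choice. On TPM means plus 1, 8 of 31 were at least 2-fold higher at 6 than at 4 hpf and 7 were at least 2-fold lower, against 13.4% and 34.7% of the 16328 genes tested in the time course. The members at least 2-fold lower were bbc3, gadd45aa, cdkn1a, igf2a, si:ch211-239d6.2, zgc:64022 and si:dkey-159n16.4. The steepest was zgc:64022, with 3.55, 7.40 and 6.53 TPM at 6 hpf against 87.4, 101 and 94.9 TPM at 4 hpf. cdkn1a had 3.84, 4.93 and 5.26 TPM at 6 hpf against 18.3, 16.7 and 15.7 TPM at 4 hpf, and bbc3 had 1.93, 2.20 and 2.05 TPM at 6 hpf against 5.52, 7.69 and 4.4 TPM at 4 hpf. For these members the 6 and 4 hpf libraries did not overlap.

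The members at least 2-fold higher were gadd45ga, txnipa, anxa1a, sesn3, plekhn1, ephb4a, rasl11b and ubb. anxa1a had 343, 341 and 348 TPM at 6 hpf against 8.77, 14.5 and 3.43 TPM at 4 hpf, and sesn3 had 167, 153 and 150 TPM at 6 hpf against 4.08, 14.7 and 3.21 TPM at 4 hpf. These were the steepest, and in both the 4 hpf value was highest in replicate 2. The DNA damage list members were thus on both sides: bbc3, gadd45aa and cdkn1a were lower at 6 hpf, sesn3 was higher, and tp53inp1, phlda3, pmaip1 and btg1 stayed within 2-fold. Many members were highest in the same library here too: time-course replicate 2 was the highest for 18 of 31 members at 4 hpf and for 22 at 6 hpf. No count over all genes is given beside these, so a shift of the whole library cannot be told apart.

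**Figure D3:**
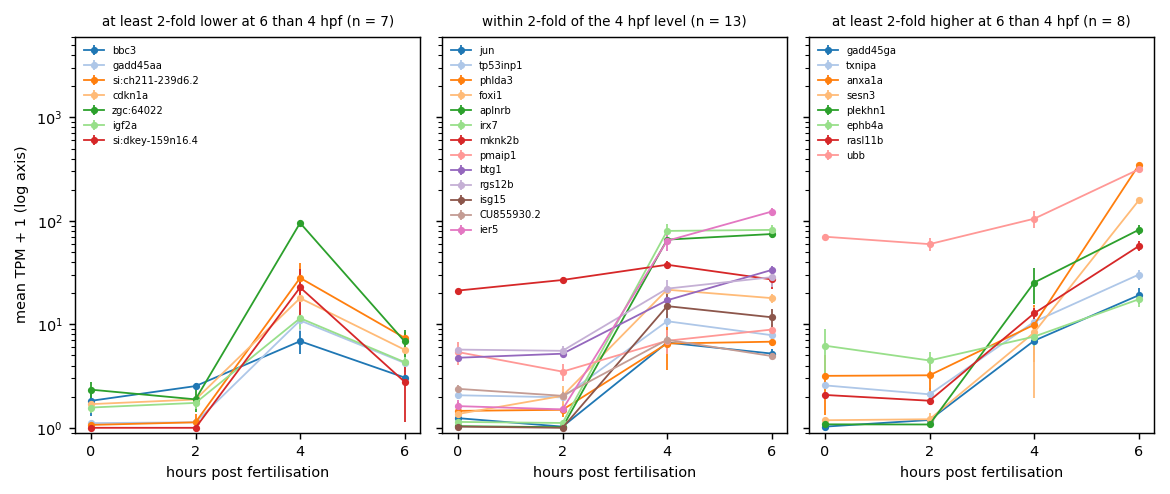
Mean TPM + 1 (log axis) at 0, 2, 4 and 6 hpf with bars of 1 SD over 3 libraries, for the 28 members without the U1 copies, in panels by their level at 6 hpf relative to 4 hpf. Members in the left panel peak at 4 hpf, while anxa1a and sesn3 in the right panel reach 344 and 156 TPM at 6 hpf.

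The contrast of 6 with 0 hpf compares time-course libraries that played no part in the choice of members. Its fit held all time-course libraries, so those used in the choice entered its variance and its filter. Expression at 4 hpf also makes a level above that of the egg likely. At 0 hpf 16 of the 28 members averaged under 1 TPM, so a call lower at 6 hpf was hardly open to these 16. By limma, 30 of 31 members were higher at 6 than at 0 hpf and 0 were lower, at adjusted p under 0.05 and likewise at unadjusted p, against 21.9% of the 16328 tested genes higher and 67.2% lower. Of the zygotic genes lower in knockdown 97.5% were called higher, and of the remaining zygotic genes 83.7%. In a fit of the 0 and 6 hpf libraries alone, 29 members were higher and 0 lower. The median log2 difference was 2.24 over the members and -1.07 over all tested genes; with median-of-ratios scaling the median over all genes was 0.15, and 30 members were still called higher. The member not called was the U1 copy CR388206.11 (log2 difference -0.64, SE 1.28, adjusted p = 0.64).

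The largest increases were in sesn3, anxa1a, ier5, plekhn1 and aplnrb. sesn3 had 167, 153 and 150 TPM at 6 hpf against 0.18, 0.12 and 0.25 TPM at 0 hpf (log2 difference 7.06, SE 0.37, adjusted p = 8.82e-10, limma). ier5 had 114, 134 and 117 TPM at 6 hpf against 0.57, 0.41 and 0.88 TPM at 0 hpf (log2 difference 6.25, SE 0.17, adjusted p = 1.02e-11, limma). aplnrb had 71.1, 80.0 and 69.5 TPM at 6 hpf against 0.04, 0.07 and 0 TPM at 0 hpf (log2 difference 6.17, SE 0.12, adjusted p = 2.64e-12, limma). In all of these the 6 and 0 hpf libraries were far apart, and on the scale of log2 of TPM + 1 the changes of genes near 0 are understated. anxa1a and plekhn1 had log2 differences of 6.92 and 6.24.

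Several of the smallest calls were lost when 1 library or another was left out. mknk2b had 21.2, 31.2 and 26.0 TPM at 6 hpf against 20.7, 19.2 and 20.7 TPM at 0 hpf (log2 difference 0.34, SE 0.13, adjusted p = 0.0229, limma); its adjusted p was 0.0709 without 0 hpf replicate 2, 0.118 without 6 hpf replicate 2 and 0.0539 without 6 hpf replicate 3. pmaip1 had 6.75, 9.02 and 7.93 TPM at 6 hpf against 5.55, 2.97 and 4.66 TPM at 0 hpf (log2 difference 0.75, SE 0.24, adjusted p = 0.0107, limma), with adjusted p 0.057 without 0 hpf replicate 2. si:dkey-159n16.4 had 0.12, 1.81 and 3.40 TPM at 6 hpf and was listed at 0 in every 0 and 2 hpf library (adjusted p = 0.0147, limma, and 0.0801 without 6 hpf replicate 3). The U1 copy CR388206.15 was called at adjusted p = 0.0311 and lost the call, at adjusted p up to 0.0906, without any 1 of 0 hpf replicates 1, 2 and 3 or 6 hpf replicates 2 and 3. bbc3 remained called in every alternative (log2 difference 0.78, SE 0.21, adjusted p = 0.00363, limma, at most 0.0214) although its 6 hpf level was only 2.06 ± 0.135 TPM, against 0.823 ± 0.519 TPM at 0 hpf (SD, n = 3 each).

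The oocyte libraries, also unused in the choice, give the RNA levels of the members in isolated oocytes, in which somatic cell markers were found as well. Of the 31 members, 21 passed the filter for testing, 1 TPM in at least 2 of the 8 libraries, and limma called 11 higher and 2 lower in stage IV than in stage I oocytes, against 22.9% and 22.4% of the 16067 tested genes. The count of 11 is partly set by that filter: gadd45aa, sesn3, igf2a and plekhn1, which were called higher, and isg15, which was not called, would not have passed it without the stage IV libraries, so a call lower in stage IV was hardly open to them. Of the other 16 members tested, 7 were called higher and 2 lower. The largest increases were in txnipa, btg1, anxa1a and jun. txnipa had 153 and 276 TPM in stage IV and 6.36 and 4.21 TPM in stage I (log2 difference 5.06, SE 0.33, adjusted p = 4.49e-05, limma). btg1 had 181 and 139 TPM in stage IV and 9.07 and 4.55 TPM in stage I (log2 difference 4.42, SE 0.31, adjusted p = 5.25e-05, limma). jun had 76.9 and 45.9 TPM in stage IV and 2.48 and 4.38 TPM in stage I (log2 difference 3.81, SE 0.46, adjusted p = 0.000517, limma), and anxa1a had a log2 difference of 3.98. Stage IV libraries lay far above stage I libraries in each, and stage III libraries lay between, for example 45.9 and 33.8 TPM for txnipa.

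Smaller increases were called for sesn3 (log2 difference 2.55), igf2a (1.78), plekhn1 (1.68), ier5 (1.48), mknk2b (1.102), tp53inp1 (1.06) and gadd45aa (0.89). Without stage IV replicate 1 or without stage IV replicate 2 the count of 11 fell to 6: sesn3, igf2a and gadd45aa then no longer passed the filter, mknk2b had adjusted p of 0.133 and 0.143, and tp53inp1 had 0.0564 and 0.0757. The members that fell were rasl11b and pmaip1. rasl11b had 5.48 and 3.88 TPM in stage IV and 43.9 and 45.2 TPM in stage I (log2 difference -3.02, SE 0.24, adjusted p = 8.2e-05, limma). pmaip1 had 32.4 and 46.6 TPM in stage IV and 153 and 205 TPM in stage I (log2 difference -2.16, SE 0.25, adjusted p = 0.000421, limma). Both calls held when each stage IV library was left out in turn.

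Many markers of somatic cells were higher in stage IV as well. Of 26 gene IDs for blood and somatic cell markers, 20 averaged at least 1 TPM in stage IV and 11 in stage I, and their summed level was 752 to 1323 TPM in stage IV, 276 to 379 TPM in stage III, 45.5 to 56.1 TPM in stage II and 37.9 to 41.9 TPM in stage I. Of the 21 markers tested, 14 were higher in stage IV and 1 was lower (limma). The follicle cell genes inha and hsd3b1 had 173 and 172 TPM and 87.4 and 75.8 TPM in stage IV, against 1.05 and 1.51 TPM and 0.39 and 0.86 TPM in stage I. Another marker, cyp19a1a, was highest in stage III, with 127 and 82.8 TPM. It had 1.07 and 9.01 TPM in stage IV and 0.25 and 0.12 TPM in stage I. The haemoglobin gene hbae1.1 was listed at 0 in all oocyte libraries. Oocytes of stages I and II were released with collagenases I and II, those of stage III with collagenase I and those of stage IV mechanically, per the labels' protocols. The part of somatic cells and of the isolation method in the oocyte differences of the members was not tested.

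**Figure D4:**
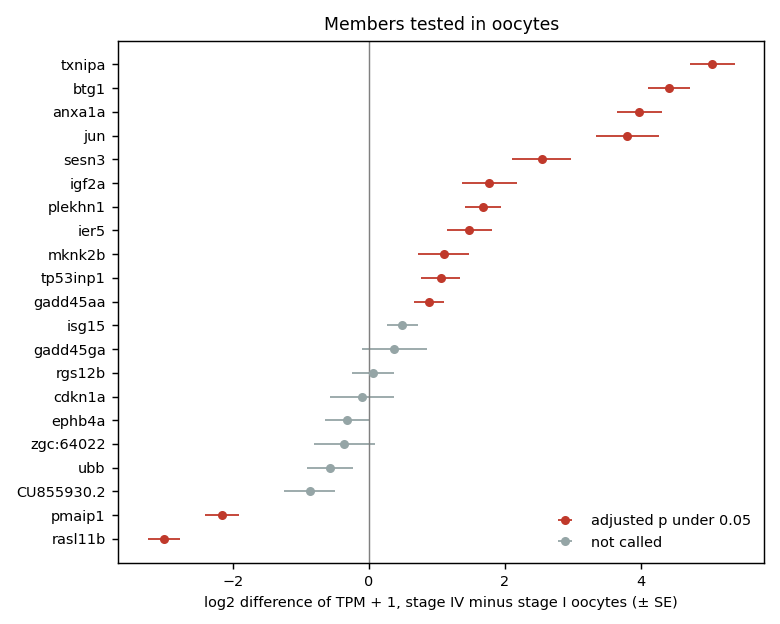
Log2 difference of TPM + 1 between stage IV and stage I oocytes for the 21 members tested, with bars of 1 SE from limma over 2 libraries a stage; colour marks adjusted p under 0.05. txnipa, btg1, anxa1a and jun lie furthest to the right, from 5.06 down to 3.81, and rasl11b lies furthest to the left, at -3.02.

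Set beside the other zygotic genes, the members had a lower median level at 4 hpf and a smaller share still increasing afterwards than the zygotic genes lower in knockdown. The members' median at 4 hpf in the time course was 11.8 TPM over all 31, against 21.6 TPM for the 322 zygotic genes lower in knockdown and 24.1 TPM for the 612 remaining zygotic genes. At 6 against 0 hpf, 96.8% of the members tested were called higher, against 97.5% and 83.7% in those sets, and the median log2 differences were 2.24, 3.92 and 1.92. At 6 against 4 hpf, 25.8% of the members were at least 2-fold higher, against 40.7% and 26% in those sets, and 22.6% were at least 2-fold lower, against 21.7% and 17.8%. The sets were formed from the same knockdown values, so these shares are a description and no difference between sets was tested.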

How the data were processed

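RNA sequencing of zebrafish oocytes and embryos was analysed from 3 tables of gene-level TPM values deposited by the authors, with 26 libraries. Per the submitters' processing notes, STAR 2.7.3a, RSEM and danRer11 were used, and the labels name no further settings. Time-course libraries were stranded and depleted of ribosomal RNA, according to the labels' protocols. TPM sums to a fixed total, so the depth of a library is unknown and no counting interval is given; the number of libraries limits the precision.

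Genes were joined by gene ID. Tests used limma 3.58.1 in R 4.3.3, with a mean-variance trend, on log2(TPM + 1) of genes with at least 1 TPM in at least 3 libraries (2 for oocytes), with Benjamini-Hochberg adjustment over all genes tested and calls at adjusted p under 0.05. Each table was fitted once with all its groups, without a replicate block, and was checked on simulated data. Fold changes on this scale understate those of low genes. Levels across tables were set side by side without a test, since the tables were normalised separately.

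The members and the gene lists were chosen with earlier results of these data known. Members named were those with the largest knockdown difference or the highest knockdown level, those in a list, those with the largest called changes, and those nearest the threshold of choice; other members and genes outside the members were named for completeness, after their values were seen. Alternatives were another scaling, pseudocount and filter, a replicate block, a 2-fold minimum and leaving out single libraries. Gene names came from the files and the reference name table, in which all 31 members matched. Promoter and protein sequences were not used here. A gene of the DNA damage and apoptosis list is not reported here and was left out of its counts.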

Additional observations from a re-analysis of the deposited data

How the results depend on the processing

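The 30 members called higher at 6 than at 0 hpf numbered 27 to 30 under every alternative tried, and 28 without the U1 copies. For CR388206.11 the log2 difference of -0.64 turned to 0.082 with median-of-ratios scaling and ran from -2.117 to 0.095 without single libraries; it was not called in any. Over the members' other log2 differences between these times, 12 alternative values lost their call and no other member changed sign. The 11 members higher in stage IV oocytes became 7 with a filter of 5 TPM, under which fewer genes were tested, and 6 to 11 without single libraries. The number of members, 31, became 16 with a knockdown ratio of 2 and was 27 to 39 under the other changes of the rule; without single libraries it was 27 to 38.

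The knockdown fit was the least stable. Its 952 genes called higher became 305 without a filter, 341 with a 2-fold minimum and 146 to 1692 without single libraries. Its 459 genes called lower became 226 without a filter, 273 with a 2-fold minimum and 161 to 623 without single libraries. Median-of-ratios scaling gave 730 higher and 582 lower. The causes were not tested.

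Replicate numbers are shared between groups, but nothing in the labels ties them to a clutch or day. Deviations of libraries with the same number correlated at 0.135, 0.021 and -0.016 between znf281b KD and pCas13d, at 0.086, 0.092 and 0.144 between 6 and 0 hpf, where every library correlated best with its own number, and at 0.05 between stages IV and I. With the replicate block, 945 genes were called higher and 487 lower in znf281b KD embryos, 30 members were higher and 0 lower at 6 than at 0 hpf, and 11 members were higher and 2 lower in stage IV.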

Other observations

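Some members that were higher in stage IV than in stage I oocytes were much lower in the fertilised egg, with the limit that the oocyte and embryo tables were normalised separately, so no test was made. txnipa had 1.91, 1.41 and 1.39 TPM at 0 hpf, against 153 and 276 TPM in stage IV oocytes. btg1 had 4.13, 3.32 and 3.81 TPM at 0 hpf, against 181 and 139 TPM in stage IV oocytes, and jun had 0.30, 0.12 and 0.30 TPM at 0 hpf, against 76.9 and 45.9 TPM. The follicle cell gene inha was likewise at 0.08, 0 and 0.09 TPM at 0 hpf, against 173 and 172 TPM in stage IV oocytes, and hsd3b1 was at 0.11, 0.05 and 0.11 TPM, against 87.4 and 75.8 TPM. Not every member fell in this way: mknk2b had 20.7, 19.2 and 20.7 TPM at 0 hpf and 59.9 and 62.6 TPM in stage IV oocytes, and ubb had 73.4, 70.5 and 63.8 TPM at 0 hpf and 81.5 and 84.9 TPM in stage IV oocytes. The part of somatic cells in the stage IV levels of txnipa, btg1 and jun was not tested.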
